A study of Homo sapiens with 24 samples.

Results

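The MYC and MAX network is a set of transcription factors that pair through a shared dimerization domain, and 10 of its genes were followed here through the response to a glucocorticoid: MYC, MAX, MXD1, MXD3, MXD4, MXI1, MNT, MGA, MLX and MLXIP. The genes were chosen by name, with earlier results of these data known. They are 10 of the 33127 genes into which the transcript rows of the series could be summed. The cells were A549, an established human lung adenocarcinoma line, with no genetic alteration named in the labels. Treated cultures received dexamethasone (dex), a synthetic glucocorticoid, at 100 nM in ethanol, and control cultures received the ethanol vehicle alone (EtOH, 0.02% by volume). RNA was collected after 1, 3, 5, 7, 9 and 11 h, with 2 libraries per treatment and time and 24 libraries in all. The 2 libraries of a group are called biological replicates in the labels without further detail, so p-values measure the spread between these libraries, which may be partly technical. A549 is a single tumour line, and the values describe that line only.

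As background, MYC drives growth genes when it is bound to MAX, its obligate partner, at a DNA motif called the E-box. The MXD proteins and MNT also need MAX, bind the same motif and recruit corepressors, so that they oppose MYC for the partner and the site, while MGA is a further MAX partner and a subunit of a Polycomb complex. MLX is a MAX-like protein that pairs with MXD1, MXD4 and MNT and with MLXIP (MondoA), a factor that enters the nucleus when glucose is high and switches on genes of glucose handling.

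Expression is given as CPM, the counts of a gene scaled to one fixed library total after TMM scaling of the libraries. The libraries held 6708864 to 13748598 counts (median 10109393.5). Each network gene was tested at each time point among 15337 genes with edgeR's quasi-likelihood test, and a gene was called at a Benjamini-Hochberg adjusted p of at most 0.1. All 10 network genes passed the filter on low counts, with 43 counts as the lowest value of any of them in any library. The 6 genes chosen as a check of the treatment, FKBP5, TSC22D3, PER1, KLF9, SGK1 and DUSP1, were all called higher with dex at 2 or more consecutive time points. The 8 epithelial and A549 markers were all above 1 CPM on average. Of the markers of other cells, 3 of 4 fibroblast, 2 of 4 immune and 2 of 2 endothelial genes in the table were below 1 CPM, with CD3E at 0. The fibroblast gene COL1A1 was above it and was called lower at consecutive times, and its part in the network changes was not tested.

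No network gene was called at 1 h. At 3 h 4 of 10 were called higher with dex, at 5 h 7, at 7 h 6, at 9 h 3 and at 11 h 2, and none was called lower at any of the 6 times. At 1 h 0.639% of all genes tested were called higher and 0.417% lower. An unadjusted p under 0.05 was found there in 2 of the 10 network genes and in 1063 of the 15337 genes tested. The 2 were MNT and MGA, both lower with dex, and DESeq2 called 0 network genes. The share of all genes called higher with dex was 8.42% at 3 h, 12.4% at 5 h, 14.7% at 7 h, 10.8% at 9 h and 5.8% at 11 h, and the share called lower at these times was 5.65%, 12.6%, 13.5%, 8.96% and 3.33%. Both dex libraries were above both EtOH libraries in 2, 5, 8, 8, 6 and 5 network genes at the 6 times in order, as in 17.8%, 26.6%, 28%, 28.9%, 26.4% and 22.2% of all genes. Both were below in 2 network genes at 1 h, in 1 at 11 h and in 0 at the times between, where the shares of all genes were 16.8%, 23.6% and, from 3 to 9 h, 25.1%, 27.7%, 29.8% and 28.7%. The median log2 fold change of the 10 genes was 0.36 at 5 h and 0.28 at 7 h, against 0.01 and 0.00 over all genes.

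MYC, MAX, MXD4, MNT, MLX and MLXIP, 6 of the 10 genes, were called higher at 2 or more consecutive time points, as were 10.7% of all genes tested. MXD4, MLX and MLXIP were called at consecutive times in each of the 12 other ways of processing that were run on the time points. Under DESeq2 they were the 3 network genes with consecutive calls, and the same 3 were left without dex replicate 1, without dex replicate 2 and without EtOH replicate 1. In bulk RNA, fewer cells that express a gene and less RNA per cell cannot be told apart. The plot of levels shows every library of the 10 genes.

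**Figure D1:**
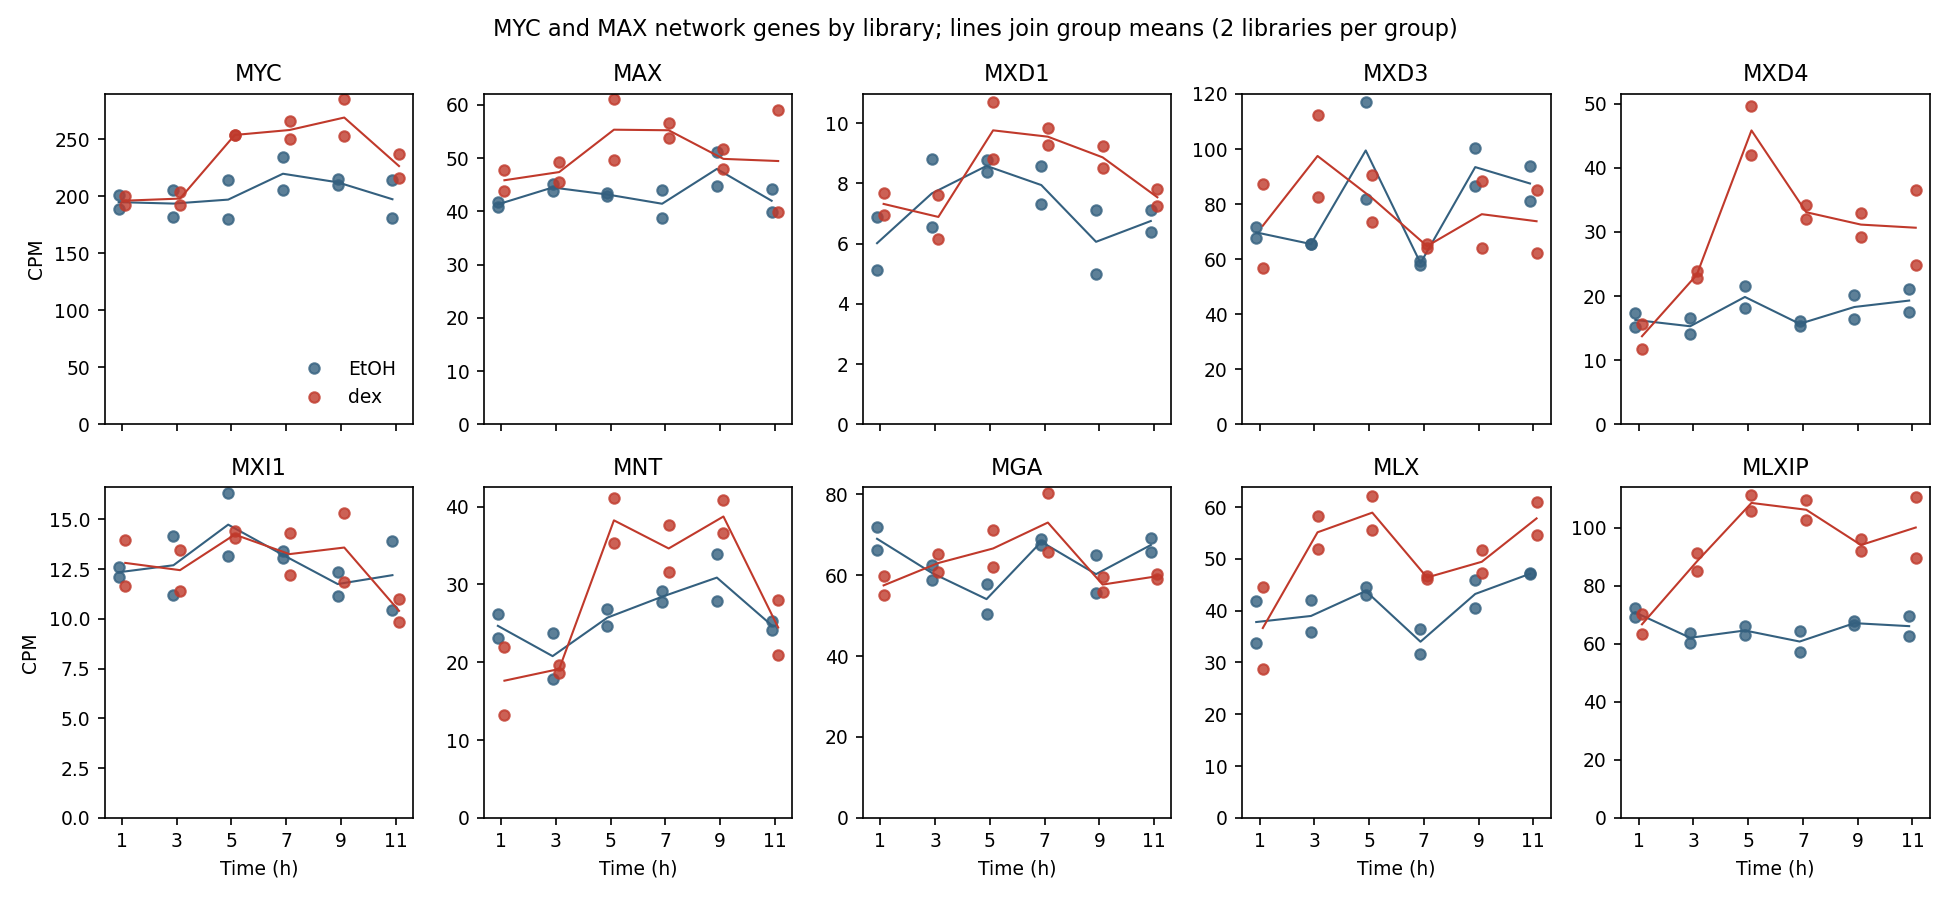
CPM of each network gene (y axis, from 0) against time in hours (x axis) in EtOH (blue) and dex (red). Points are single libraries, 2 per group, and lines join the group means. For MXD4, MLX and MLXIP both dex libraries lie above both EtOH libraries from 3 to 11 h, while the libraries of MXI1 overlap at all 6 times.

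The E-box CACGTG, the motif that MYC, MXD and MNT dimers and MLX dimers share, was searched in the 250 bases before the RefSeq start sites (GRCh38.p14). The motif reads the same on both strands. Of the 10 genes 9, all but MYC, had an entry. MAX and MLXIP, both called higher at consecutive times, held no E-box. An E-box was held by 3 of the 9 genes, MXD4, MLX and MNT, against 7.73% of the 27305 genes with an entry. Its first base lay 238 bases before the start of MXD4, 50 before that of MLX and 193 before that of MNT. These 3 stretches of 250 bases were 70.4%, 71.2% and 78.0% GC, against a median of 58% over all promoters. Entries of the other network genes ran from 55.6% to 76.4%. The part of GC content in the E-box share was not tested. No glucocorticoid receptor element, searched as the arms AGAACA and TGTTCT with 3 bases between them, was found in the 9 genes. A pair of E-boxes with 5 bases between them, the arrangement known for MLX dimers, was not found either. On both strands, each was found in 1 gene of the whole table. A match is a description of the letters, and no binding was measured. The stretches shown lie before every GENCODE start of the gene and are printed 5′ to 3′ for the E-box genes and for MLXIP, which rose with them and has none. They are chr4:2262295-2262359 (minus strand, 65 bases), chr17:42566850-42567067 (plus strand, 218 bases), chr17:2401119-2401310 (minus strand, 192 bases) and chr12:122078506-122078721 (plus strand, 216 bases), with the E-box in capitals.
MXD4: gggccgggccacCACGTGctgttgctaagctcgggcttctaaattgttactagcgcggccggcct
MLX: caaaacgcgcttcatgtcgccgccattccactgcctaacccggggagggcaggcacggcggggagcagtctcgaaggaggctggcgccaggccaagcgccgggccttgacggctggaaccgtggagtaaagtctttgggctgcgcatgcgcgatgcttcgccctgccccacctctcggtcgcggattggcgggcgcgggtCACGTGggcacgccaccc
MNT: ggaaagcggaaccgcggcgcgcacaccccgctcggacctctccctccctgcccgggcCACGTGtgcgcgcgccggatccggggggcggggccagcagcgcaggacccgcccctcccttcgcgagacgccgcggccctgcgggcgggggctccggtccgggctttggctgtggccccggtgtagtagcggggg
MLXIP: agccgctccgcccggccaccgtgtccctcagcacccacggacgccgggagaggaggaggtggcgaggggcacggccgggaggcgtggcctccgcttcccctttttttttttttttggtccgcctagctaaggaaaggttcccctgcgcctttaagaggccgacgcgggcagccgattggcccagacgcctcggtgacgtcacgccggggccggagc

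MYC, the growth driver of the network, was called higher with dex at 5, 7 and 9 h. Its level at 1 h was 200.01 and 192 CPM in the dex libraries and 188 and 201 CPM in the EtOH libraries, and the 2 groups overlapped there and at 3 h. At 5 h the dex libraries held 254 and 253 CPM and the EtOH libraries 179.9 and 214 CPM, a log2 fold change of 0.36 ± 0.10 (SE, adjusted p = 0.00802). From 5 to 11 h both dex libraries were above both EtOH libraries. The difference was 0.24 ± 0.08 (adjusted p = 0.0218) at 7 h, 0.36 ± 0.11 (adjusted p = 0.0421) at 9 h and 0.22 ± 0.14 (adjusted p = 0.482) at 11 h, so that 11 h was not called. The 5 h call was lost without EtOH replicate 1, at 0.25 (adjusted p = 0.187). The 7 h call was lost without dex replicate 1, dex replicate 2 or EtOH replicate 1, at 0.19 (adjusted p = 0.382), 0.28 (adjusted p = 0.155) and 0.15 (adjusted p = 0.159), as well as with DESeq2 and in one fit over the 24 libraries. The 9 h call was lost without dex replicate 1, at 0.28 (adjusted p = 0.547), without dex replicate 2, at 0.44 (adjusted p = 0.242), and with 1 transcript per gene. Without dex replicate 2 the 11 h difference was called, at 0.27 (adjusted p = 0.0690).

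MAX, the partner that MYC, the MXD proteins, MNT and MGA all need, was called higher at 5 and 7 h. At 5 h it stood at 49.6 and 61.0 CPM in dex and 42.9 and 43.4 CPM in EtOH, a log2 fold change of 0.36 ± 0.12 (SE, adjusted p = 0.0333). At 7 h the levels were 56.7 and 53.8 CPM in dex and 38.8 and 44.0 CPM in EtOH, a log2 fold change of 0.43 ± 0.10 (SE, adjusted p = 0.00209). Both dex libraries were above both EtOH libraries from 1 to 7 h, and the groups overlapped at 9 h and 11 h. At 11 h the dex libraries lay far apart, at 59.1 and 39.8 CPM, on either side of the EtOH libraries at 44.1 and 39.8 CPM. Without dex replicate 2 that time was called, at 0.50 (adjusted p = 8.19e-04). The 5 h call was lost without dex replicate 2, at 0.21 (adjusted p = 0.419), without EtOH replicate 1, at 0.35 (adjusted p = 0.155), without EtOH replicate 2, at 0.37 (adjusted p = 0.149), with DESeq2 and with 1 transcript per gene. The 7 h call was lost without dex replicate 1, at 0.38 (adjusted p = 0.135).

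MXD4, a MAX partner that represses E-box genes (chr4:2247432-2262294, minus strand, GRCh38), showed the largest change of the network. At 1 h it stood at 11.8 and 15.7 CPM in dex and 15.2 and 17.4 CPM in EtOH, and the libraries overlapped. By 3 h the dex libraries were at 23.9 and 22.7 CPM against 14.1 and 16.5 CPM in EtOH, a log2 fold change of 0.60 ± 0.15 (SE, adjusted p = 0.00926). At 5 h they reached 42.0 and 49.7 CPM against 21.6 and 18.2 CPM, a log2 fold change of 1.21 ± 0.14 (SE, adjusted p = 1.64e-09), which is 2.32-fold. The dex libraries then declined but stayed above every EtOH library of their time. They held 34.1 and 32.02 CPM at 7 h, 29.3 and 33.0 CPM at 9 h and 24.8 and 36.5 CPM at 11 h, against 15.3 and 16.1, 20.2 and 16.4 and 21.1 and 17.5 CPM in EtOH. The differences at these times were 1.09 ± 0.13 (adjusted p = 2.27e-08), 0.79 ± 0.15 (adjusted p = 0.00360) and 0.69 ± 0.21 (adjusted p = 0.0820). The 5 h and 7 h calls held without each library in turn. The 3 h call was lost without EtOH replicate 1, at 0.49 (adjusted p = 0.127), and the 9 h call without dex replicate 2, at 0.69 (adjusted p = 0.135). At 11 h the call was lost without dex replicate 2, EtOH replicate 1 or EtOH replicate 2, at 0.38 (adjusted p = 0.103), 0.82 (adjusted p = 0.200) and 0.55 (adjusted p = 0.631). It was also lost with DESeq2, with at least 10 counts required in every library and with 1 transcript per gene.

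Neither MXD1 nor MXI1 was called at any time. MXD1, the repressor known to rise when cells differentiate, had the lowest counts of the network, and its 24 libraries ran from 5.00 to 10.7 CPM. Both dex libraries were above both EtOH libraries at 5 of 6 times. The largest difference was at 9 h, with 8.50 and 9.23 CPM in dex and 7.12 and 5.00 CPM in EtOH, a log2 fold change of 0.57 ± 0.23 (SE, adjusted p = 0.132). That time was called without EtOH replicate 1, at 0.85 (adjusted p = 0.00937), and also in one fit over the 24 libraries and with 1 transcript per gene. A transcript of MXD1 with 23.2% of its 50-base windows in SNRNP27 holds 353 of the 1766 MXD1 counts, and without it the 9 h value was 0.80 (adjusted p = 0.0727). With a replicate block and all libraries kept, MXD1 was also called at 9 h, at 0.59 (adjusted p = 0.0440). MXI1, another repressor of this family, ran from 9.84 to 16.3 CPM, and its dex and EtOH libraries overlapped at all 6 times. Its log2 fold changes lay between -0.22 and 0.20.

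MXD3, a family member tied to dividing cells, was called at 3 h alone, and most of its counts lie in a transcript that overlaps another gene. Its libraries at 3 h held 112 and 82.5 CPM in dex and 65.5 and 65.4 CPM in EtOH, a log2 fold change of 0.57 ± 0.12 (SE, adjusted p = 0.00260). One transcript held 17167 of the 17957 MXD3 counts, and 29.4% of its 50-base windows also lie in PRELID1, a gene on the opposite strand that encodes a mitochondrial lipid carrier. PRELID1 stood at 265 and 186 CPM in dex and 158 and 171 CPM in EtOH at 3 h, a log2 fold change of 0.46 ± 0.13 (SE, adjusted p = 0.0324). Across the 24 libraries the log2 CPM of MXD3 and PRELID1 had a Pearson r of 0.889, a description over libraries that share time and treatment. The transcripts of MXD3 without such windows held 305 counts over all libraries, with 7 and 16 in dex and 7 and 17 in EtOH at 3 h. From these the 3 h difference was 0.01 ± 0.50 (adjusted p = 0.995), and the counts are too few to show a change of 0.57. The share of the MXD3 counts that came from PRELID1 was not tested. With a replicate block and all libraries kept, MXD3 was called lower at 5 h (-0.26, adjusted p = 0.0715) and 9 h (-0.28, adjusted p = 0.0489). The 3 h call was also lost without dex replicate 1, at 0.34 (adjusted p = 0.138), and in one fit over the 24 libraries. MXD3 was called lower at 5 h without dex replicate 1, at -0.43 (adjusted p = 0.0155), without EtOH replicate 2, at -0.51 (adjusted p = 0.0126), and with no filter on low counts. It was called lower at 9 h without EtOH replicate 1, at -0.36 (adjusted p = 0.00398), and at 11 h without dex replicate 2, at -0.48 (adjusted p = 5.26e-04).

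**Figure D2:**
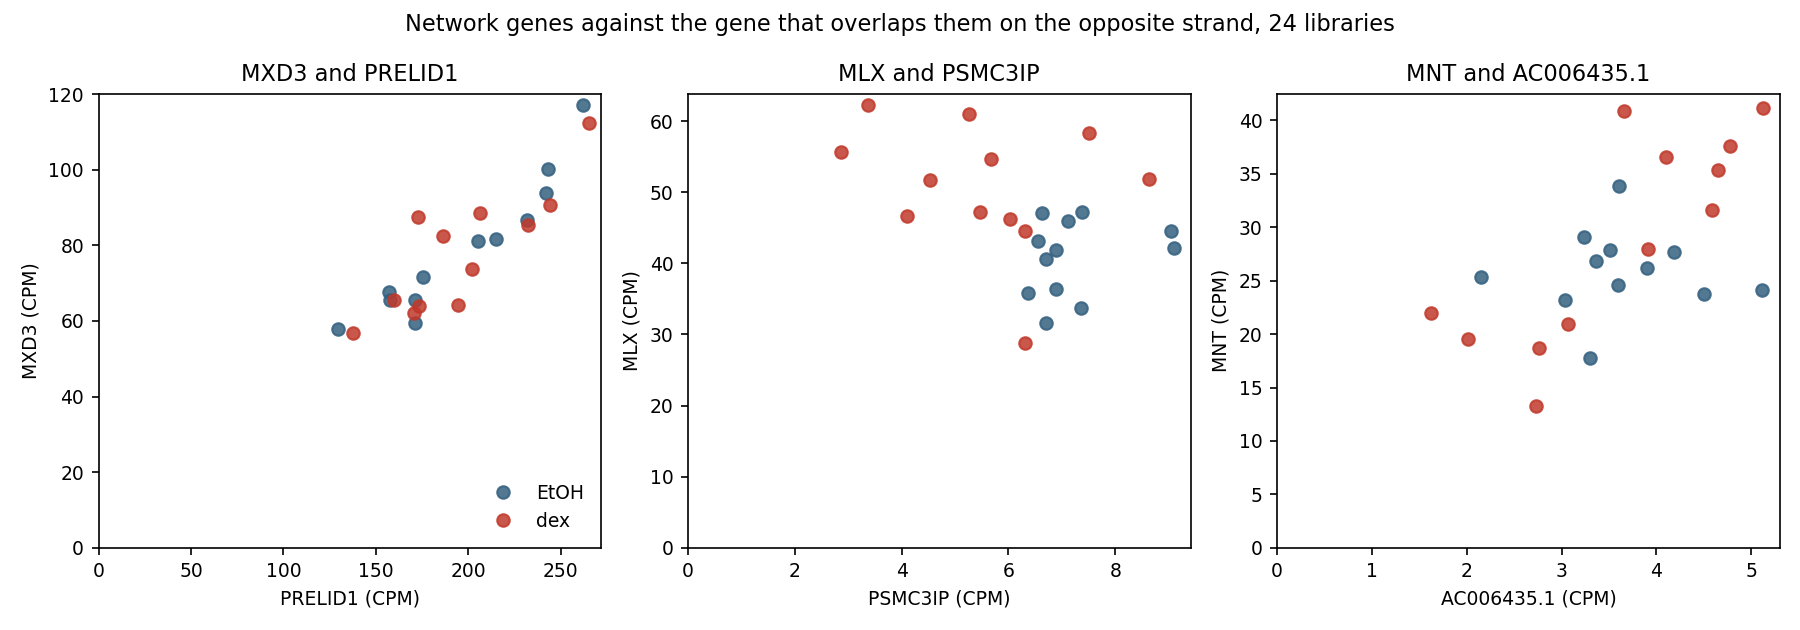
CPM of 3 network genes (y axes, from 0) against CPM of the gene that overlaps each of them on the opposite strand (x axes, from 0), in 12 EtOH (blue) and 12 dex (red) libraries. MXD3 rises along with PRELID1 (Pearson r = 0.889 on log2 CPM), MLX does not rise with PSMC3IP (r = -0.415), and MNT lies between (r = 0.577).

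MNT, the broadly expressed MAX partner that represses MYC targets (chr17:2384060-2401118, minus strand, GRCh38), was called higher at 5 and 7 h, and its dex effect differed between times. At 1 h the dex libraries held 13.2 and 22.0 CPM and the EtOH libraries 23.2 and 26.2 CPM, with both dex libraries lower, and the difference of -0.53 ± 0.20 (adjusted p = 0.516) was not called. At 5 h they held 35.3 and 41.1 CPM against 24.6 and 26.9 CPM in EtOH, a log2 fold change of 0.57 ± 0.13 (SE, adjusted p = 0.00108), and dex was higher in both libraries. At 7 h the difference was 0.28 ± 0.12 (adjusted p = 0.0768), and at 9 h it was 0.35 ± 0.14 (adjusted p = 0.131) and not called. The 5 h call held without each library in turn. The 7 h call was lost without dex replicate 1, dex replicate 2 or EtOH replicate 1, at 0.41 (adjusted p = 0.1199), 0.16 (adjusted p = 0.557) and 0.25 (adjusted p = 0.183), as well as with DESeq2, with no filter on low counts, in one fit over the 24 libraries and with 1 transcript per gene. Without dex replicate 2 the 1 h decrease was called, at -0.90 (adjusted p = 2.80e-04), and without EtOH replicate 1 the 9 h increase was, at 0.50 (adjusted p = 0.00538). With a replicate block and all libraries kept, MNT was also called lower at 1 h (-0.53, adjusted p = 0.0121) and higher at 9 h (0.36, adjusted p = 0.0344). The transcript with nearly all MNT counts shares 19.7% of its 50-base windows with AC006435.1 on the opposite strand, which held 831 counts against 6263 for MNT. AC006435.1 was called at no time. Its difference was -0.63 ± 0.34 (adjusted p = 0.820) at 1 h, -0.73 ± 0.31 (adjusted p = 0.157) at 3 h and 0.49 ± 0.28 (adjusted p = 0.236) at 5 h. Its part in the MNT counts was not tested. The 66 MNT counts left without the overlapping transcript gave 0.95 (adjusted p = 0.634) at 5 h, too few to show a change of this size.

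MGA, the MAX partner of the Polycomb complex PRC1.6, was called at 5 h only. It stood there at 71.2 and 62.1 CPM in dex and 50.4 and 57.8 CPM in EtOH, a log2 fold change of 0.30 ± 0.12 (SE, adjusted p = 0.0707). Both dex libraries were lower than both EtOH libraries at 1 h and 11 h, with differences of -0.27 ± 0.12 (adjusted p = 0.708) and -0.16 ± 0.14 (adjusted p = 0.658), and neither was called. The 5 h call was lost without dex replicate 1, at 0.19 (adjusted p = 0.418), without EtOH replicate 1, at 0.21 (adjusted p = 0.392), with DESeq2, with no filter on low counts and with 1 transcript per gene.

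MLX and MLXIP, which encode the 2 partners of the glucose-sensing MLX and MondoA dimer, both rose from 3 h. MLXIP (chr12:122078722-122147347, plus strand, GRCh38) stood at 63.3 and 70.2 CPM in dex and 72.3 and 69.4 CPM in EtOH at 1 h, where the libraries overlapped. At 3 h the dex libraries held 91.5 and 85.2 CPM and the EtOH libraries 60.3 and 63.9 CPM, a log2 fold change of 0.51 ± 0.11 (SE, adjusted p = 0.00186). At 7 h they held 109.7 and 103 CPM against 57.2 and 64.4 CPM, a log2 fold change of 0.82 ± 0.09 (SE, adjusted p = 1.12e-08), or 1.76-fold. The lowest dex library from 3 to 11 h, at 85.2 CPM, was above the highest EtOH library of any time, at 72.3 CPM. The remaining differences were 0.75 ± 0.11 (adjusted p = 4.52e-07) at 5 h, 0.51 ± 0.11 (adjusted p = 0.00788) at 9 h and 0.62 ± 0.15 (adjusted p = 0.0289) at 11 h. The calls at 3, 5 and 7 h held without each library in turn. The 9 h call was lost without dex replicate 1, at 0.54 (adjusted p = 0.146), or dex replicate 2, at 0.47 (adjusted p = 0.212). The 11 h call was lost without EtOH replicate 1, at 0.54 (adjusted p = 0.477), without EtOH replicate 2, at 0.69 (adjusted p = 0.213), and with 1 transcript per gene.

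For MLX (chr17:42567068-42573239, plus strand, GRCh38), the dex libraries at 3 h held 58.4 and 51.9 CPM and the EtOH libraries 35.8 and 42.1 CPM, a log2 fold change of 0.50 ± 0.12 (SE, adjusted p = 0.00754). The levels were 62.2 and 55.7 CPM against 44.5 and 43.1 CPM at 5 h and 46.6 and 46.2 CPM against 31.6 and 36.4 CPM at 7 h. Dex was higher in both libraries at every time from 3 to 11 h. The differences were 0.43 ± 0.12 (adjusted p = 0.00672) at 5 h, 0.46 ± 0.11 (adjusted p = 0.00141) at 7 h, 0.22 ± 0.13 (adjusted p = 0.317) at 9 h and 0.31 ± 0.15 (adjusted p = 0.306) at 11 h, the last 2 not called. The 3 h call was lost without EtOH replicate 1, at 0.38 (adjusted p = 0.151), and the 7 h call without dex replicate 1, at 0.45 (adjusted p = 0.102). Without EtOH replicate 1 the 9 h difference was called, at 0.31 (adjusted p = 0.0741), and without dex replicate 1 the 11 h difference was, at 0.39 (adjusted p = 0.00578). MLX has 4 transcripts in the deposited counts, and 3 of them share 26.6% to 29.5% of their 50-base windows with PSMC3IP on the opposite strand. PSMC3IP, a gene of meiotic recombination, moved the other way, with 3.37 and 2.86 CPM in dex and 9.04 and 6.56 CPM in EtOH at 5 h, a log2 fold change of -1.31 ± 0.27 (SE, adjusted p = 2.18e-04). The MLX transcript without such windows held 1107 of 10499 MLX counts. It gave differences of 1.09 ± 0.27 (adjusted p = 0.00635) at 3 h, 0.71 ± 0.25 (adjusted p = 0.0405) at 5 h and 1.21 ± 0.30 (adjusted p = 0.00224) at 7 h, each of them called. At 9 h it held 17 and 72 counts in dex and 61 and 41 in EtOH, a difference of -0.17 ± 0.33 (adjusted p = 0.790). At 11 h the difference was 0.63 ± 0.27 (adjusted p = 0.249), and neither time was called.

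**Figure D3:**
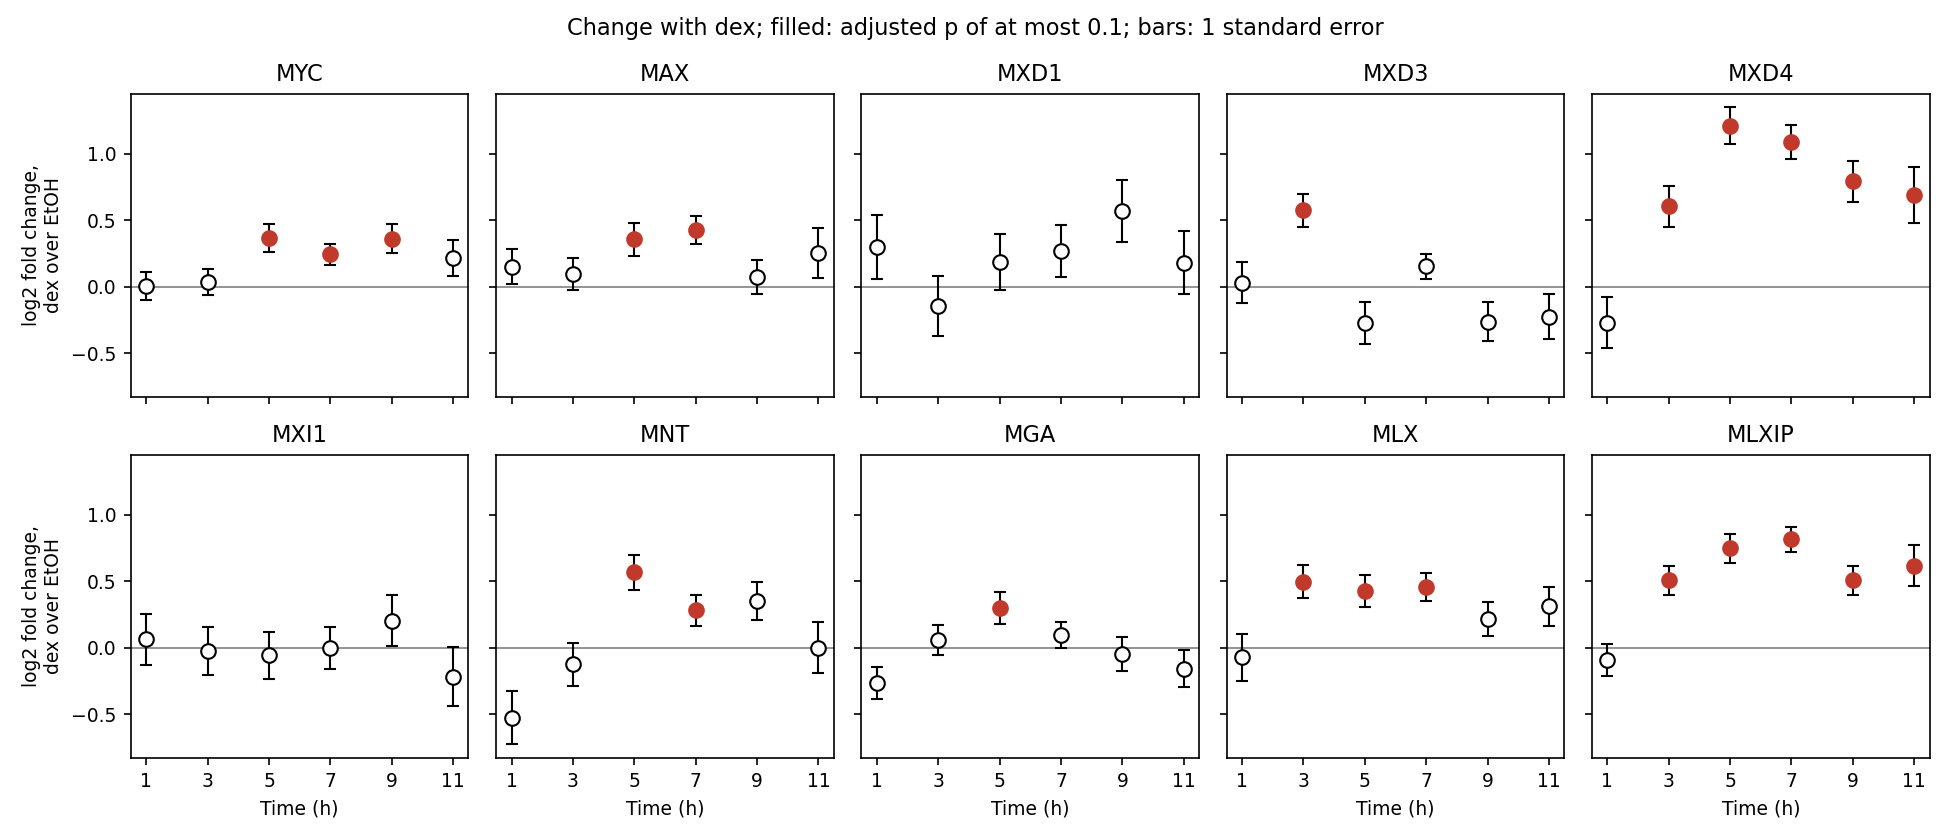
Log2 fold change of dex over EtOH (y axis) at each time in hours (x axis) for the 10 network genes, with bars of 1 standard error. Filled points were called at an adjusted p of at most 0.1. MXD4 and MLXIP are called at 5 of 6 times, MLX at 3 to 7 h and MYC at 5 to 9 h, and no point is called at 1 h.

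Whether the dex effect differed between times was tested with 5 treatment by time terms over the 24 libraries, and 3 of the 10 network genes passed, against 15.4% of all genes tested. They were MLXIP (adjusted p = 0.00151), MXD4 (adjusted p = 0.00212) and MNT (adjusted p = 0.0400). The call of MNT was lost without the first dex or the second EtOH library at 1 h, or the second dex library at 5 h, with adjusted p of 0.133, 0.145 and 0.103. MLX was called without the second dex library at 1 h (adjusted p = 0.0319), and MGA without the first dex library at 7 h (adjusted p = 0.0936) or the second EtOH library at 9 h (adjusted p = 0.0951). MXD3 was called with no filter on low counts (adjusted p = 3.40e-05) and by DESeq2 (adjusted p = 0.0918). Between 1 and 3 h the effect on MLXIP grew by 0.60 ± 0.15 on the log2 scale (adjusted p = 0.0254) and that on MXD4 by 0.87 ± 0.26 (adjusted p = 0.0606). These were the 2 network genes called for that step, against 4.87% of all genes. No network gene was called for a later step, for which the shares of all genes were 6.94%, 0%, 0.0782% and 0.685%. The step of MXD4 from 3 to 5 h was 0.61 ± 0.24 (adjusted p = 0.179), and that of MNT was 0.70 ± 0.25 (adjusted p = 0.134). For MYC the times did not differ beyond the spread (adjusted p = 0.312), so a growth of its effect after 1 h was not shown. In the 12 EtOH libraries 1 of 10 network genes, MXD3, changed with time (adjusted p = 0.0321), with a range of 57.8 to 117 CPM. Without the first EtOH library at 7 h this was not called (adjusted p = 0.154). The share over all genes was 3.37%.

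A contrast of the mean dex effect over the 6 times, added after the values had been seen, used all 24 libraries in one fit. It called 6 of 10 network genes higher, against 16.9% of all genes. The mean effect was 0.68 ± 0.07 for MXD4 (adjusted p = 1.04e-08), 0.51 ± 0.04 for MLXIP (adjusted p = 1.79e-10), 0.30 ± 0.06 for MLX (adjusted p = 2.66e-04), 0.22 ± 0.06 for MAX (adjusted p = 0.00381) and 0.20 ± 0.04 for MYC (adjusted p = 6.05e-04). MXD1 was called by this contrast too, at 0.22 ± 0.09 (adjusted p = 0.0570). For the 4 genes not called the 95% interval of the mean effect was -0.16 to 0.14 for MXI1, -0.11 to 0.09 for MGA, -0.07 to 0.24 for MNT and -0.19 to 0.18 for MXD3. For MNT this mean joins times with opposite signs.

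Levels of different genes were compared per length, as TPM, in which the counts of each transcript are divided by its length, scaled to a fixed total and summed per gene. In the 12 EtOH libraries MYC was the most abundant, at 176 ± 15.5 TPM (SD, n = 12). MAX stood at 44.1 ± 3.66 TPM, MLX at 34.9 ± 5.76 TPM and MLXIP at 21.3 ± 1.61 TPM. MGA (11.6 ± 1.31 TPM), MXI1 (10.1 ± 1.35 TPM), MNT (9.48 ± 1.69 TPM) and MXD4 (9.21 ± 1.599 TPM) followed, and the ranges of these 4 over the EtOH libraries overlapped. Between MAX and MLX the ranges overlapped too, while MYC lay above all others, and every MLX library lay above every MLXIP library. MXD1 was lowest, at 5.11 ± 0.807 TPM. MXD3 was listed at 62.2 ± 13.5 TPM, with the part of PRELID1 in its counts not tested. With dex the median TPM of MXD4 was 14.8, above the highest EtOH library at 12.1, and that of MYC was 203, against 202 in the highest EtOH library.

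**Figure D4:**
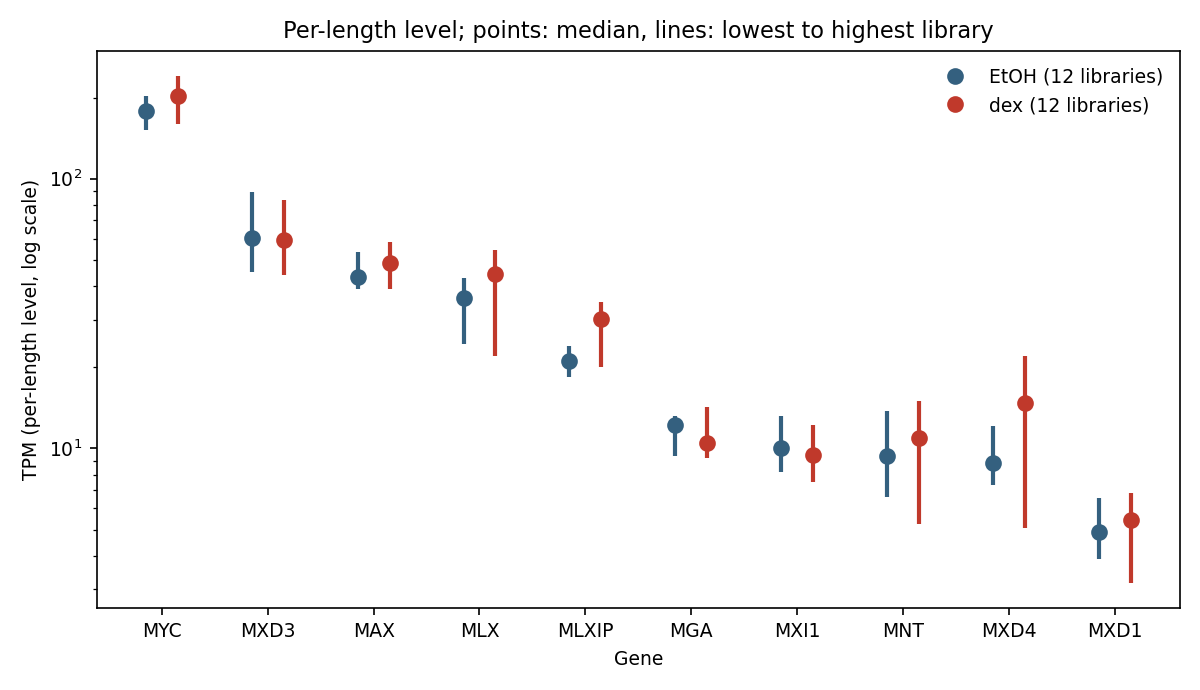
Per-length level in TPM (y axis, log scale) of the 10 network genes (x axis, ordered by the EtOH median), with the median (points) and the range from the lowest to the highest library (lines) in 12 EtOH (blue) and 12 dex (red) libraries over all times. MYC lies above all others, and MYC, MLX, MLXIP and MXD4 have dex medians above all their EtOH libraries. MXD3 overlaps PRELID1, whose part in its level was not tested.

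At the level of single transcripts, 39 of the 60 network transcripts in the table could be tested, and 7 were called at 2 or more consecutive times, all higher. Of the 56380 transcripts tested, 10.9% were called at consecutive times in either direction, higher and lower together. The 7 network transcripts belong to MYC (2), MXD4 (1), MLX (2) and MLXIP (2). The 2 of MYC were ENST00000524013, with 41.6% of its counts, and ENST00000259523, with 9.57%. They differed between dex and EtOH by 0.38 ± 0.12 (adjusted p = 0.0268) and 0.41 ± 0.15 (adjusted p = 0.0644) at 5 h, and by 0.26 ± 0.09 (adjusted p = 0.0442) and 0.36 ± 0.13 (adjusted p = 0.0660) at 7 h. The most counted MYC transcript, ENST00000377970 with 42.8%, was called at 5 h, by 0.37 ± 0.12 (adjusted p = 0.0348), and at 9 h, by 0.39 ± 0.13 (adjusted p = 0.0851), but not at 7 h between them (adjusted p = 0.279). For MXD4, ENST00000337190 held 96.4% of the counts, with a 5 h difference of 1.25 ± 0.14 (adjusted p = 2.12e-09). The main transcripts of MLXIP, ENST00000319080 and ENST00000538698, held 70.0% and 23.8% and gave 7 h differences of 0.77 ± 0.10 (adjusted p = 1.18e-07) and 0.86 ± 0.13 (adjusted p = 2.87e-06). Of the MLX transcripts, ENST00000246912 and ENST00000591024, with 29.7% and 10.5% of its counts, were called at consecutive times and differed at 5 h by 0.56 ± 0.16 (adjusted p = 0.0145) and 0.71 ± 0.24 (adjusted p = 0.0448). MNT was carried by ENST00000174618, with 98.9% of its counts and a 5 h difference of 0.57 ± 0.14 (adjusted p = 0.00281). Near-identical transcripts of a gene share most of their sequence, so counts within a gene could be split between them, and no transcript of the other 6 genes was called at consecutive times.

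Genes around the network were read from lists, beside the shares over all genes. Of 56 tested MYC target genes, taken after a collection of nucleolar and growth genes, 4 were called higher and 7 lower at 2 or more consecutive times, and the median of their mean log2 fold changes was -0.02, against 0.00 over all genes. Of all genes tested 9.46% were called lower in this way. The share called higher was 10.7%. The 3 targets with the largest mean change were MAP3K6, a kinase gene, SLC29A2, a nucleoside transporter gene, and RCL1, a gene of ribosomal RNA processing. MAP3K6 stood at 21.1 and 23.7 CPM in dex and 8.48 and 9.81 CPM in EtOH at 7 h, a log2 fold change of 1.29 ± 0.16 (SE, adjusted p = 5.46e-08). SLC29A2 was called at 5, 9 and 11 h and stood at 6.83 and 7.00 CPM in dex and 3.70 and 3.40 CPM in EtOH at 9 h, a log2 fold change of 0.98 ± 0.25 (SE, adjusted p = 0.0174). In both genes every dex library was above every EtOH library of the time given. RCL1 stood at 60.0 and 75.0 CPM in dex and 38.0 and 38.6 CPM in EtOH at 5 h, a log2 fold change of 0.82 ± 0.12 (SE, adjusted p = 1.18e-06). The 7 that fell were MCM4 and MCM5, subunits of the replicative helicase, PLK4, NOLC1, PRMT3, TMEM97 and UNG, and WDR43 was the remaining one that rose, all named after their values were seen.

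In the list of related factors, 1 of 6 tested was called higher at consecutive times, against 10.7% of all genes. This was MLXIPL (ChREBP), the other glucose-sensing partner of MLX. It was scarce, with 2.44 and 2.38 CPM in dex and 0.653 and 0.798 CPM in EtOH at 5 h, a log2 fold change of 1.70 ± 0.45 (SE, adjusted p = 0.00419), and both dex libraries were above both EtOH libraries from 5 to 11 h. Of the 2 listed targets of MLX and MLXIP, TXNIP had 10 counts over all libraries in its 1 transcript of the table and was not tested. The other, ARRDC4, an arrestin gene, was tested at 0 to 1.43 CPM and called at no time. With these counts neither could show whether targets of the dimer followed its genes. Whether the 8945 transcripts without a matched gene hold further TXNIP counts was not tested.

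Among 12 coactivators and corepressors, NCOR1, a corepressor scaffold, was called higher at consecutive times, with 291 and 309 CPM in dex and 237 and 238 CPM in EtOH at 7 h, a log2 fold change of 0.35 ± 0.07 (SE, adjusted p = 4.62e-04). Of the 10 genes of the PRC1.6 complex that holds MGA, PCGF6, a core subunit, was the 1 called at consecutive times and it fell, with 20.1 and 23.3 CPM in dex and 32.6 and 32.03 CPM in EtOH at 7 h, a log2 fold change of -0.58 ± 0.12 (SE, adjusted p = 4.01e-04). Of 10 genes of MYC protein turnover 2 fell, CIP2A, whose product protects MYC from dephosphorylation, and SKP2, an F-box gene of ubiquitin ligation. Over all genes tested, 10.7% were called higher and 9.46% lower at consecutive times. The single calls among coactivators and corepressors and in PRC1.6 are near these shares. CIP2A stood at 134 and 169.6 CPM in dex and 235 and 225 CPM in EtOH at 5 h, a log2 fold change of -0.60 ± 0.11 (SE, adjusted p = 2.79e-05). SKP2 stood at 54.0 and 63.9 CPM in dex and 79.4 and 74.8 CPM in EtOH at 7 h, a log2 fold change of -0.39 ± 0.10 (SE, adjusted p = 0.00315).

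Without dex replicate 1 the counts of related factors, coactivators and corepressors, PRC1.6 genes and turnover genes called at consecutive times were 0 in each list. The turnover count also fell without each of the other replicates. Each such setting dropped that replicate of a treatment at all 6 times at once. The coactivator count was 2 without EtOH replicate 1 or 2, and the PRC1.6 count was 3 without EtOH replicate 1. The medians of the mean log2 fold changes were 0.02 for related factors, -0.01 for coactivators and corepressors, -0.12 for PRC1.6 and -0.06 for turnover.

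Cell cycle genes moved over part of the hours in which network genes rose. At 3 h, when 4 network genes were called higher, 0 genes of either cell cycle list were called lower and 1 S phase gene was called higher. At 9 h 4 S phase and 2 G2 and M genes were called lower, and at 11 h 1 and 0. All 6 S phase genes and all 6 G2 and M genes listed were called lower at 5 h and at 7 h. Their median log2 fold changes at 5 h were -1.24 and -0.50, and the summed level of the S phase genes ran from 850.4 to 1997 CPM in dex and from 1678 to 2297 CPM in EtOH. Their part in the changes of MXD4, MNT, MYC or the turnover genes was not tested.

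**Figure D5:**
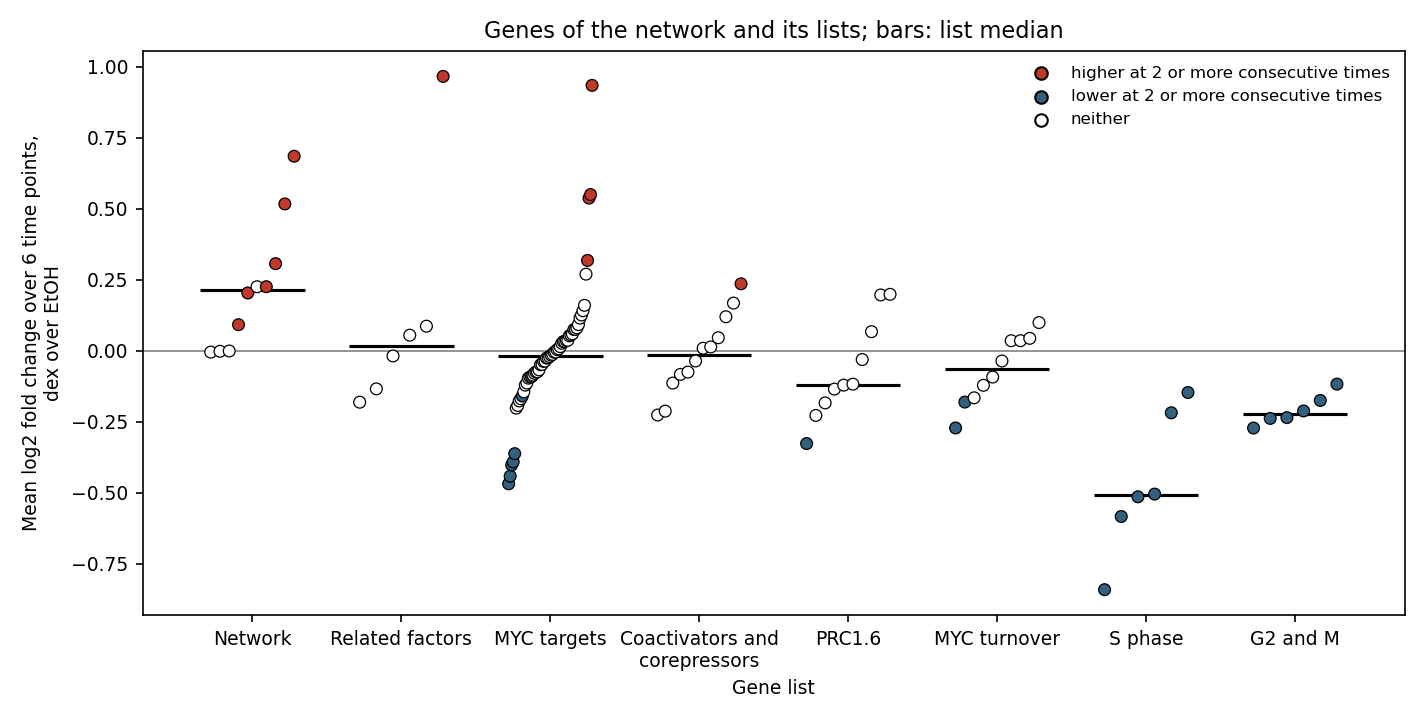
Mean log2 fold change over the 6 time points (y axis) of each gene of the network and of the lists around it (x axis), with the list median as a bar. Red genes were called higher and blue genes lower at 2 or more consecutive times, and white genes neither. The network median lies above 0, most MYC targets lie near 0, and all 12 cell cycle genes lie below 0.

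Among the 9135 other genes with a mean of at least 10 CPM, the 5 whose log2 CPM over the 24 libraries was most like that of MXD4 were, with Pearson's r, ITPR3 (0.965), IPO13 (0.965), P3H2 (0.960), MSRB1 (0.955) and CALCOCO2 (0.954). For MYC they included KIAA1191 (0.895), MIR22HG (0.876), ANKRD29 (0.875) and FBXO3 (0.868). These are descriptions over libraries that share time and treatment, and carry no test. Within the network the closest pair was MXD4 and MLXIP (r = 0.903), followed by MXD4 and MLX (r = 0.814).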

How the data were processed

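RNA sequencing of 24 A549 libraries was analysed, 2 for dex and 2 for EtOH at each of 6 times from 1 to 11 h. The deposited values are raw counts of reads per transcript. According to the methods of the study, the authors sequenced stranded poly-A libraries as 50-base single-end reads, aligned them to GENCODE transcripts with Bowtie and counted them with SAMtools, and the submitters' processing notes name hg19. How reads that fit several transcripts were placed, and whether strand was used, is not given in the sources used here. The labels' treatment text gives 1 h for every library, and the duration given for each library was used. The study's methods speak of triplicates, and 2 libraries per group were analysed here.

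Of 119207 transcripts, 110262 (94.1% of counts) were matched by identifier without version to genes of GENCODE v29 (GRCh38), an annotation later than the study's, and summed per gene. The other 8945 were not used in the gene tests. Each time point was fitted by itself with edgeR 4.0.16 in R 4.3.3, with TMM scaling, the filterByExpr filter over the 12 groups, the quasi-likelihood test and Benjamini-Hochberg adjustment over all 15337 genes tested. Standard errors were taken from the fitted change and its F statistic, as change over root F. The time tests used all 24 libraries, or the 12 EtOH libraries. The coefficient of variation between replicates beyond counting error, fitted as a common value over all genes, ran from 6.49% at 7 h to 12.7% at 11 h. Fold changes of the 56380 transcripts tested were fitted in the same way. The fits were tested on simulated data.

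The network genes and all lists (related factors, MYC targets, MLX and MLXIP targets, coactivators and corepressors, PRC1.6, MYC protein turnover, cell cycle, cell type markers and treatment check) were chosen with earlier results of these data known. All network genes were named, with the 3 genes of each list that had the largest mean change among those called at 2 or more consecutive times, the 5 genes most like MYC and like the network gene with the smallest combined p, and transcripts with at least 10% of the counts of their gene. A gene that this rule names is not reported here.

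Alternatives were DESeq2 1.42.0, its size factors in edgeR, no filter on low counts, at least 10 counts in every library, one fit over the 24 libraries, a replicate block, a threshold of 0.05, 1 transcript per gene (chosen by the lowest p over all times combined) and each library left out. For consecutive calls, the same replicate number of a treatment was left out at all 6 times. The contrast of the mean effect over times, and the network without transcripts of which at least 5% of the 50-base windows lie in another gene, were chosen after seeing the data.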

Additional observations from a re-analysis of the deposited data

Results flagged for a closer look

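The difference of the dex effect between time points passed the test of the treatment by time terms in 3 network genes. These results (edgeR quasi-likelihood test, adjusted over all genes) are given for a closer look. Of the 3, MNT overlaps AC006435.1 on the opposite strand, and the part of AC006435.1 in the MNT counts was not tested. For MXD4 the adjusted p was 0.00212, with the dex libraries at 11.8 and 15.7 CPM at 1 h and at 42.0 and 49.7 CPM at 5 h, and it passed without each of the 24 libraries in turn, with an adjusted p of at most 0.0342. For MLXIP the adjusted p was 0.00151, with a highest value of 0.0244 when libraries were left out in turn. For MNT it was 0.0400, from a difference that was -0.53 at 1 h and 0.57 at 5 h on the log2 scale, and the call was lost without the first dex library at 1 h (adjusted p = 0.133), the second EtOH library at 1 h (adjusted p = 0.145) or the second dex library at 5 h (adjusted p = 0.103).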

How the results depend on the processing

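In no alternative did a called network gene change sign. A change of sign where neither value was called was counted as no change. The calls of single network genes lost or gained at a time point are given in the report, and those gained with the replicate block in the last paragraph. For counts over consecutive times, leaving out a replicate dropped that library of a treatment at all 6 times at once. The labels do not link these libraries across times. The time tests left out single libraries. Leaving out 1 library in turn gave 0 to 1 network genes called at 1 h, 2 to 4 at 3 h, 4 to 7 at 5 h, 2 to 6 at 7 h, 0 to 7 at 9 h and 0 to 4 at 11 h. Over all genes it gave 88 to 691, 1290 to 2257, 2756 to 3331, 2005 to 4821, 1056 to 5297 and 720 to 4979 calls. Network genes with consecutive calls numbered 3 to 5, those whose effect differed between times 2 to 4 and those that changed in EtOH 0 to 3. Consecutive calls ranged from 0 to 1 in related factors, 8 to 10 in MYC targets, 0 to 2 in coactivators, 0 to 3 in PRC1.6 and 0 to 1 in turnover. DESeq2 called 1208 genes at 3 h, 2348 at 5 h, 2464 at 7 h and 1831 at 9 h, against 2159, 3834, 4325 and 3035 with edgeR. It left 1 network gene at 11 h, 3 network genes and 3 network transcripts with consecutive calls, and 1 turnover gene. With no filter, 247 genes were called at 1 h, 2 PRC1.6 genes at consecutive times and 3 network genes for a change in EtOH, MXD3, MNT (adjusted p = 0.0419) and MLX (adjusted p = 0.0513). MNT was also called for that change without the second EtOH library at 3 h (adjusted p = 0.0952) or at 9 h (adjusted p = 0.0831), and without the first at 9 h MGA (adjusted p = 0.0531) and MLX (adjusted p = 0.0898) were. With at least 10 counts in every library, 1 network gene was called at 11 h, no related factor (0) and 2 PRC1.6 genes. One fit over the 24 libraries called 2477 genes at 11 h, 2 coactivators, 2 PRC1.6 genes and 0 turnover genes. With 1 transcript per gene the counts were 0 network genes at 11 h, 0 related factors and 1 turnover gene, and at a threshold of 0.05 1 network gene was called at 11 h. The causes were not tested, and the fits that leave out a library also hold fewer samples.

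Replicate numbers do not pair the libraries by the labels, and the deviations of same-numbered dex and EtOH libraries correlated between -0.07 and 0.16 over the 6 times. With the replicate block, 1, 4, 8, 6, 6 and 2 network genes were called at 1 to 11 h, against 0, 4, 7, 6, 3 and 2 without it. Over all genes the block called 583, 1862, 3976, 4539, 4388 and 1803 at these times, against 162, 2159, 3834, 4325, 3035 and 1399 without it. The block thus raised the calls at 9 h over all genes too. The block lost no call of a network gene. It added MNT lower at 1 h (-0.53, adjusted p = 0.0121) and higher at 9 h (0.36, adjusted p = 0.0344). It also added MXD3 lower at 5 h (-0.26, adjusted p = 0.0715) and 9 h (-0.28, adjusted p = 0.0489), and MXD1 higher at 9 h (0.59, adjusted p = 0.0440). The block gave 6 network genes and 7 network transcripts with consecutive calls, as without it, and 2 coactivators and 2 PRC1.6 genes. Depth limits MXD1, with 43 to 116 counts per library, more than the other network genes.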
